A study of Mus musculus with 24 samples.

Results

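A double knockdown of the coactivators CBP and p300 after meiosis was read at 2 stages of sperm formation. The question addressed here was whether its effect on messenger RNA depended on the stage. The measure was the stage difference, which is the knockdown minus wild-type difference in condensing spermatids minus the same difference in round spermatids, on the log2 scale. It was examined for the 7512 genes whose probe was detected (detection p under 0.05 against negative control beads) in all 6 wild-type arrays of round spermatids and all 6 of condensing spermatids, so that a fall could be seen at either stage. These were 69.8% of the 10759 genes measured, and they were selected on wild-type detection alone, so a gene present in the knockdown only could not enter. Of them, 7255 (96.6%) were also detected in all 12 knockdown arrays, and 4 and 16 were detected in 3 or fewer of the 6 knockdown arrays of round and condensing spermatids.

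The series holds 4 groups of 6 Illumina bead arrays each, made from total RNA: round and condensing spermatids of wild-type adult mice, and both cell types of adult mice with a double knockdown of Cbp and p300 restricted to cells that have completed meiosis. All animals were 7 weeks old. The labels name neither the strain, the driver of the knockdown nor the way the cells were separated. Nor do the labels say that the 6 samples of a group came from different animals. The spread behind every p-value is therefore that of these samples and may be technical. Some arrays of a group also varied together after the group means were taken out. This residual correlation over the 7512 genes was 0.67 for wild-type round arrays 1 and 2. For knockdown round arrays it was 0.77 for 11 and 12 and 0.54 for 8 and 10. The arrays may thus not be independent, in which case the p-values are too small. Between 15687 and 18411 probes were detected per array. The number of arrays limited the precision: over the 7512 genes the median 95% interval of the stage difference reached 0.39 to either side, a 1.31-fold ratio. The 6 arrays of a group varied more in round than in condensing spermatids, with a median SD of 0.23 in wild type and 0.27 in the knockdown against 0.17 in both condensing groups. Arrays 3 of wild-type and 8 and 10 of knockdown round spermatids stood apart, with mean correlations of 0.969, 0.973 and 0.971 with the rest of their groups. With these 3 arrays left out together, 5 of the 7512 genes were called for the stage difference, against 4 with all arrays, and those 4 were among them, while 65 in place of 28 were called in condensing spermatids. Neither targeted gene was called at either stage. The mean level of Crebbp, which encodes CBP, was 7.32 ± 0.22 (SD, n = 6) in wild type against 7.34 ± 0.38 in the knockdown for round cells, and 5.82 ± 0.21 against 5.71 ± 0.41 for condensing cells. For Ep300, which encodes p300, the mean was 7.93 against 7.97 in round cells and 6.59 against 6.57 in condensing cells. The stage difference was -0.12 (95% interval -0.62 to 0.37) for Crebbp and -0.07 (interval -0.56 to 0.42) for Ep300. A second probe of Crebbp, detected in 22 arrays, differed by 0.00 in round and by -0.45 in condensing cells, with a stage difference of -0.45 ± 0.26 (limma, adjusted p = 0.809 over all probes), and a second probe of Ep300, detected in 10 arrays, differed by 0.19 at both stages. The position of the probes relative to the targeted stretch is not known here.

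CBP and p300 are closely related acetyltransferases that are recruited by DNA-bound transcription factors, among them CREB, and acetylate histones at promoters and enhancers. Round spermatids are the haploid cells that leave meiosis and still transcribe actively. Condensing spermatids elongate and silence transcription while transition proteins and then protamines replace histones, so their messenger RNA is in part a store made earlier.

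Few of the genes detected at both stages were called for a knockdown effect that differed by stage. Of the 7512 genes, 4 were called (limma, Benjamini-Hochberg adjusted p under 0.05 over all 10759 genes), which is 0.0532% against 0.0465% of all genes measured. In each of the 4 the stage difference was negative: Fos, Gria1, Prf1 and Zfp36 fell in knockdown condensing spermatids and were not called in round spermatids. No gene was called in the other direction, against 0% of all genes. At an unadjusted p under 0.05 there were 511 genes, 6.8% against 6.94% of all genes measured. Of these, 253 had a positive stage difference, against 3.63% of all genes, and 258 a negative one, against 3.31% of all genes. At an adjusted p under 0.1 there were 11 genes, 4 positive and 7 negative.

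Among the 7512 genes the widest gap between stages was that of Fos, the immediate early gene that encodes a subunit of the AP-1 transcription factor. In round spermatids Fos ranged from 5.29 over a median of 5.56 to 5.68 in wild type and from 5.27 over 5.68 to 5.94 in the knockdown. It was detected in every round array, but these levels were near the detection limit. Probes with a detection p of 0.03 to 0.05 had a median level of 5.01 to 5.33 depending on the array. In condensing spermatids Fos ranged from 7.29 over 7.93 to 8.56 in wild type and from 6.20 over 6.29 to 6.47 in the knockdown. The round groups overlapped, and in condensing spermatids each knockdown array lay below each wild-type array. The knockdown minus wild-type difference of Fos was 0.12 ± 0.16 (model SE, n = 6 arrays a group) in round and -1.59 ± 0.16 in condensing spermatids. Its stage difference was -1.70 ± 0.23 (limma, adjusted p = 0.000163), which is a 3.26-fold ratio. Its knockdown level in condensing spermatids, with a mean of 6.30, still stood above its round spermatid levels.

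Zfp36 encodes tristetraprolin, which binds and destabilizes the messenger RNA of cytokines and is itself induced as an immediate early gene. Round cells had a range of 5.28 over 5.50 to 5.66 in wild type and of 5.18 over 5.69 to 5.76 in the knockdown. These levels too were near the detection limit. In condensing spermatids Zfp36 ranged from 7.05 over 7.39 to 7.80 in wild type and from 6.38 over 6.47 to 6.81 in the knockdown, with no overlap. The difference was 0.09 ± 0.13 in round and -0.88 ± 0.13 in condensing spermatids, and the stage difference of Zfp36 was -0.97 ± 0.18 (limma, adjusted p = 0.0291).

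Gria1 encodes a subunit of AMPA-type glutamate receptors. Wild-type condensing spermatids gave 6.62 to 7.81 for Gria1 with a median of 7.10, and the knockdown gave 5.08 to 6.11 with a median of 5.81, again without overlap. Round spermatids gave 5.15 to 5.57 in wild type and 4.97 to 5.68 in the knockdown, near the detection limit, where probes with a detection p of 0.03 to 0.05 had a median level of 5.01 to 5.33 depending on the array. Gria1 differed by -0.02 ± 0.17 in round and by -1.35 ± 0.17 in condensing spermatids. Its stage difference was -1.33 ± 0.24 (limma, adjusted p = 0.0259). The other 2 probes of Gria1, each detected in 14 arrays, had stage differences of -1.02 (adjusted p = 0.0699 over all probes) and -0.70 (adjusted p = 0.597).

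Prf1, the gene of the pore-forming protein perforin of cytotoxic lymphocytes, was the one called gene that was brighter in round than in condensing spermatids. In round spermatids it ranged from 7.30 over 7.45 to 8.03 in wild type and from 7.50 over 8.02 to 8.37 in the knockdown. In condensing spermatids Prf1 ranged from 6.63 over 6.93 to 7.11 in wild type and from 5.78 over 6.26 to 6.48 in the knockdown. The condensing groups did not overlap, and the round groups did. Its difference was 0.42 ± 0.15 in round spermatids, which was not called (adjusted p = 0.999, unadjusted p = 0.00858), and -0.71 ± 0.15 in condensing spermatids (adjusted p = 0.0232). The stage difference of Prf1 was -1.13 ± 0.21 (limma, adjusted p = 0.0273), of which the round value, itself not called, made up part.

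The 4 calls differed in how far they held when the arrays or the processing changed. Fos was called under 38 of 38 other settings, 24 of which each left out 1 array, Gria1 under 28 of 37, Prf1 under 25 of 38 and Zfp36 under 21 of 38, and each kept its sign in all of them. Without wild-type round array 4, 5 or 6 only Fos of the 7512 genes was called, and adjusted p-values of the other 3 then lay between 0.0562 and 0.0729.

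**Figure D1:**
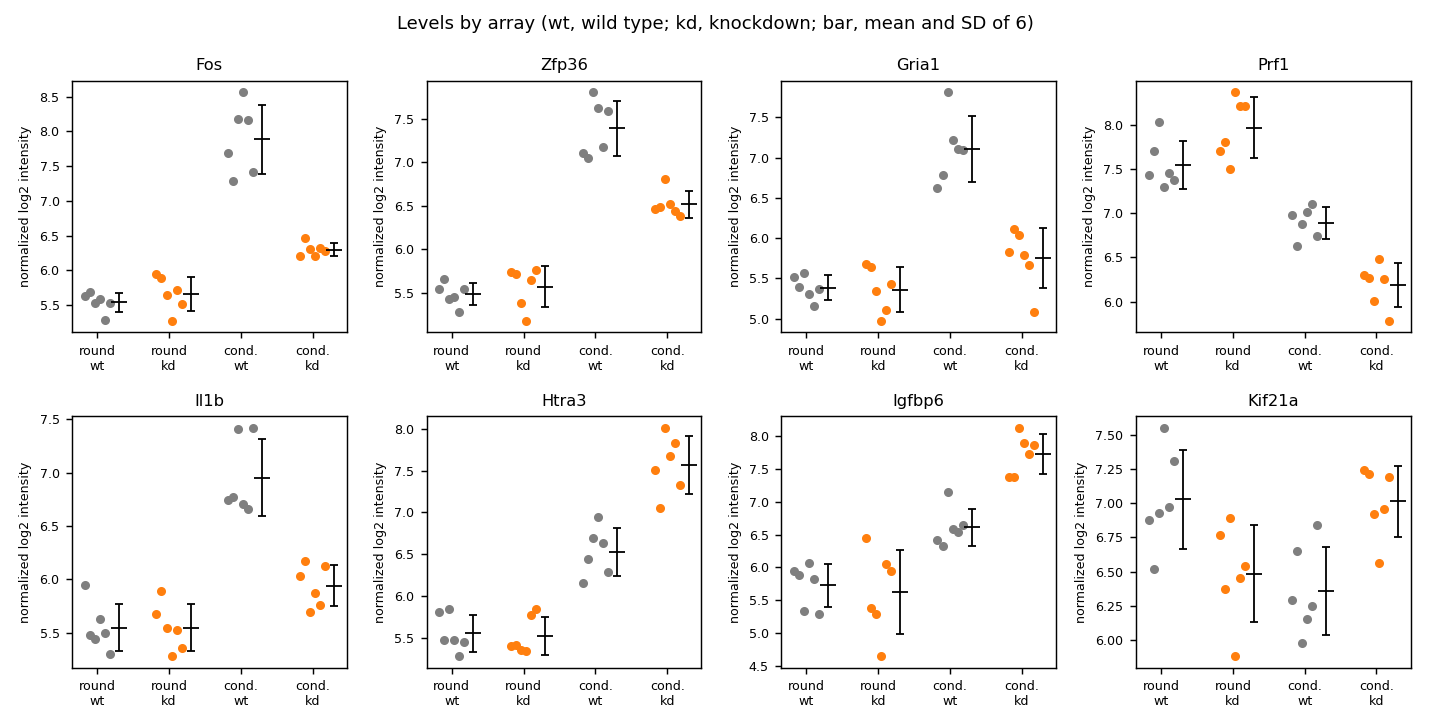
Normalized log2 intensity of 8 genes in each of the 24 arrays, with the 4 groups along the horizontal axis, one point an array, and the mean and SD of 6 arrays at the right of each group (wild type grey, knockdown orange). Fos, Zfp36, Gria1, Prf1 and Il1b were lower and Htra3 and Igfbp6 higher in knockdown than in wild-type condensing spermatids without overlap, whereas the round spermatid groups of these genes overlapped.

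The windows before the start sites of these genes are shown because CBP is named for its binding to CREB, whose DNA site is the cyclic AMP response element. The element was searched as TGACGTCA and as its 5-base part TGACG, each on both strands, in RefSeq windows of 250 bases before to 50 after the start site (build GRCm38.p6). Below are the 250 bases before the start for Fos at chr12:85473640-85473889 on the plus strand, Prf1 at chr10:61297586-61297835 on the plus strand and Zfp36 at chr7:28379229-28379478 on the minus strand, 5′ to 3′, with TGACG in capitals.
Fos: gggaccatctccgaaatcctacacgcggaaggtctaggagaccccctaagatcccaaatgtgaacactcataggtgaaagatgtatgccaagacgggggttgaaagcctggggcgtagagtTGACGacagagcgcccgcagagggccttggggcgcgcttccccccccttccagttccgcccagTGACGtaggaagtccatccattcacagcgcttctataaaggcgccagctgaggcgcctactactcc
Prf1: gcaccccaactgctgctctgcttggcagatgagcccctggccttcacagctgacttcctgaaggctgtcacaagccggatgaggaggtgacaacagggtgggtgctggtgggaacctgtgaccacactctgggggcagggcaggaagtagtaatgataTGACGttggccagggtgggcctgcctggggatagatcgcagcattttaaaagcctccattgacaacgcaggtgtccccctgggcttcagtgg
Zfp36: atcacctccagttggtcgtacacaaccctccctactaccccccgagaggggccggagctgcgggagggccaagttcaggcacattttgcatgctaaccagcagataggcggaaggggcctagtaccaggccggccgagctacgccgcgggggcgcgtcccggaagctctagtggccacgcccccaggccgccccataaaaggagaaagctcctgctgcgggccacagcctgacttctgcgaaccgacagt
The Fos window held TGACG at 2 places, 129 to 125 and 66 to 62 bases before the start, the Prf1 window held it once, at 92 to 88 bases, and the Zfp36 window did not hold it. None of the 3 held the 8-base element. Across the 32851 windows of the table, 20.8% held TGACG on either strand and 1.79% the full element. These matches describe the windows and by themselves neither show nor exclude a binding site. No window of Gria1 was used here.

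Below the threshold, the stage differences of 7 further genes with an adjusted p under 0.1 went both ways. Il1b, the gene of the cytokine interleukin 1 beta, ranged from 6.66 to 7.42 in wild-type and from 5.70 to 6.17 in knockdown condensing spermatids, and from 5.28 to 5.95 over all round arrays. Its stage difference was -1.0 ± 0.20 (limma, adjusted p = 0.0549). Htra3, a secreted serine protease, ranged from 6.16 to 6.95 in wild-type and from 7.05 to 8.01 in knockdown condensing spermatids, while the round groups lay between 5.28 and 5.85. Its stage difference was 1.07 ± 0.22 (limma, adjusted p = 0.0549). Round levels of Il1b and Htra3 were near the detection limit given above. The other positive values were 0.71 ± 0.15 for Tmem106c, a transmembrane protein gene (adjusted p = 0.0708), 0.73 ± 0.16 for Hspg2, which encodes the basement membrane proteoglycan perlecan (adjusted p = 0.0744), and 1.19 ± 0.25 for Kif21a, a kinesin motor (adjusted p = 0.0553). The other negative values were -0.60 ± 0.13 for Nt5dc3 (adjusted p = 0.0706) and -0.66 for Wdsub1 (adjusted p = 0.0744), which lies outside the rule for named genes and was named after its value was seen. The second probe of Hspg2 gave 0.43, and that of Nt5dc3, detected in 10 arrays, gave -0.07.

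Kif21a had differences of opposite sign and similar size at the 2 stages. Opposite signs were also found among the genes above. Prf1, which was picked for them as well, had 0.42 in round and -0.71 in condensing spermatids. Nt5dc3 had 0.21 and -0.38, and Tmem106c had -0.22 and 0.49. In round spermatids Kif21a ranged from 6.52 over 6.95 to 7.55 in wild type and from 5.88 over 6.49 to 6.89 in the knockdown. In condensing spermatids it ranged from 5.98 over 6.27 to 6.84 in wild type and from 6.56 over 7.07 to 7.24 in the knockdown. The groups overlapped at both stages, and neither difference, -0.54 ± 0.17 in round and 0.65 ± 0.17 in condensing spermatids, was called. Erich5 and Aknad1 had the opposite order, with differences of 0.39 in round spermatids for both and of -0.67 and -0.52 in condensing spermatids, and stage differences of -1.06 and -0.91 that were not called (adjusted p = 0.123 for each). Fbf1 and Snrpd1 followed the order of Kif21a, with stage differences of 0.80 and 0.88 that were not called. A second probe gave -0.08 for Fbf1, detected in 9 arrays, and 0.75 for Snrpd1, detected in 24 arrays. These genes were picked for their opposite values, which are given as a description.

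Tested within each stage, genes were called in condensing spermatids alone. In round spermatids 0 of 7512 genes were called by limma (0% of all genes measured, smallest adjusted p = 0.894), with 283 at an unadjusted p under 0.05, or 3.77% against 3.61% of all genes. In condensing spermatids 28 were called, or 0.373% against 0.539% of all genes measured. Of these, 10 were higher in the knockdown, against 0.26% of all genes, and 18 were lower, against 0.279% of all genes. A gene called at one stage and not at the other is not thereby shown to differ between them, which is why the stage difference was tested itself. Of the 18 genes that fell in condensing spermatids, 18 had an unadjusted p under 0.05 for the stage difference and 4 were called. Of the 10 that rose, 9 had an unadjusted p under 0.05 and 0 were called. The exception was Snx29, a sorting nexin gene, with 0.51 in condensing and 0.32 in round spermatids. A second probe of Snx29, detected in 24 arrays, differed by 0.06 in condensing and 0.11 in round spermatids and did not show that rise. The choice of genes by the condensing values favours a stage difference of the same sign, so these counts are a description.

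The round spermatid values of those 28 genes lay around 0. The 18 genes that fell had a median difference of -0.66 in condensing and of 0.00 in round spermatids, where the range was -0.17 to 0.42 and 9 of 18 were below 0. The 10 genes that rose had a median of 0.70 in condensing and of -0.05 in round spermatids, where the range was -0.22 to 0.32 and 3 of 10 were above 0. Groups were apart, with no overlap between any knockdown and any wild-type array, for 16 of the 18 and 8 of the 10 in condensing spermatids and for none of the 28 in round spermatids. The 8 include Hspg2 and Osr2, whose groups touch in the rounded values. Over all genes measured the groups were apart for 1.31% in condensing spermatids, 0.688% with the knockdown lower, and for 0.186% in round spermatids, 0.0651% with the knockdown lower. The 28 genes were chosen by these condensing values and none was called in round spermatids. The counts follow in large part from that choice and are no further support.

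The genes that rose in condensing spermatids had varied roles. Within the 7512 genes the largest rise after those of Igfbp6 and Htra3 was that of Osr2, a zinc finger transcription factor gene of mesenchyme, from 6.88 to 7.72 in wild type to 7.72 to 8.66 in the knockdown, a difference of 0.78 ± 0.18 (limma, adjusted p = 0.0445). Slc38a5, a glutamine transporter gene that Sertoli cells express, lay between 7.59 and 8.24 in wild type and between 8.20 and 9.11 in the knockdown, a difference of 0.74 ± 0.16 (adjusted p = 0.0306). Cyp27a1, a sterol 27-hydroxylase of bile acid synthesis, lay between 6.38 and 7.34 and between 7.32 and 8.26, also a difference of 0.74. Hspg2 was between 6.93 and 7.61 in wild type and between 7.61 and 8.18 in the knockdown, so that its groups touched, as those of Osr2 did, while those of Slc38a5 and Cyp27a1 overlapped at the edge. In round spermatids these 4 genes differed by -0.09, -0.14, 0.18 and -0.06, and none was called for the stage difference (0.87, 0.88, 0.56 and 0.73). The condensing calls of some of these genes were close to the threshold: under other settings Osr2 was called in 18 of 39, Cyp27a1 in 22 of 39 and Slc38a5 in 29 of 39, while Hspg2 and Htra3 were called in 39 of 39 and Igfbp6 in 38 of 38.

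Low signal compresses a log2 difference, because an offset of 16 is added to each intensity. To show what a change of equal fold amounts to in round spermatids, the condensing fold above the offset was applied to the wild-type round level of each gene. For Fos, the signal above the offset was 3.52-fold lower in knockdown condensing spermatids. The same fold would have given a difference of -0.92 in round spermatids, where 0.12 was measured with a 95% interval of -0.21 to 0.44. The same calculation gave -0.80 for Gria1, against a measured -0.02 (interval -0.37 to 0.33), -0.57 for Zfp36 against 0.09 (interval -0.18 to 0.35) and -0.76 for Prf1 against 0.42 (interval 0.12 to 0.73). It gave 0.88 for Htra3, against -0.03 (interval -0.34 to 0.28). These genes were named for their condensing values, whose own error the calculation leaves out, so the values are a description and not a test of the stage difference.

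**Figure D2:**
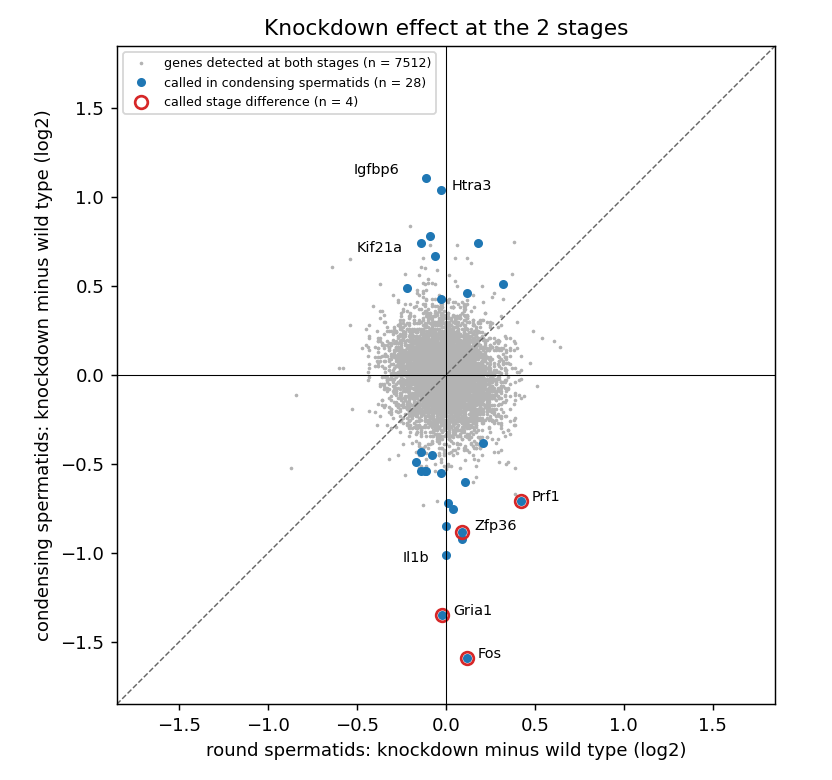
Knockdown minus wild-type difference in round (horizontal) and condensing spermatids (vertical), both in log2, for the 7512 genes detected at both stages. Blue points are the 28 genes called in condensing spermatids, red rings the 4 with a called stage difference, and the dashed line marks equal effects. The blue points spread along the vertical axis and stay between -0.22 and 0.42 on the horizontal one.

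Across the 7512 genes the effects at the 2 stages did not run together. Their correlation across genes was -0.13 (Pearson) and -0.14 (Spearman), and 44.9% of genes had the same sign at both stages. Both contrasts use different arrays, but all arrays were normalized together, and genes are not independent replicates. The SD of the differences across genes was 0.14 in round, 0.16 in condensing spermatids and 0.23 for the stage difference. The median standard errors were 0.14, 0.14 and 0.19. Those of the 2 stages are alike because the model shares 1 spread per gene, although condensing arrays varied less. With each stage fitted alone, 963 in place of 586 genes had an unadjusted p under 0.05 in condensing and 198 in place of 283 in round spermatids. That fit called 20 genes in condensing spermatids, 13 of them among the 28, and 0 in round spermatids. The 95% interval of the stage difference lay wholly within 2-fold of no difference for 7227 genes (96.2%) and within 1.5-fold for 56.4%. These folds are of the signal with the offset added, which compresses the differences of dim genes. For such genes they do not bound the fold in signal above the offset. If the arrays are not independent, the intervals are also too narrow.

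The effect averaged over both stages, which is orthogonal to the stage difference in this balanced design, was called for 2 of the 7512 genes, 0.0266% against 0.0372% of all genes measured. They were Fos, with an average of -0.74 ± 0.11 (limma, adjusted p = 0.00237), and Gria1, with -0.69 ± 0.12 (adjusted p = 0.0162). Their round differences were 0.12 and -0.02 and their condensing differences -1.59 and -1.35.

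Among immediate early genes, which cells induce within minutes of a stimulus without new protein synthesis, negative stage differences outnumbered positive ones, 16 to 7 of 23 measured. Fos and Zfp36 were called. At an unadjusted p under 0.05 there were 7 negative values, the others being Junb, Egr1, Dusp1, Nr4a3 and Klf6, and 0 positive ones, where all genes measured had 3.31% and 3.63%. The median stage difference of the 23 was -0.21, against 0.01 over all genes measured. It was -0.25 over the 15 that were detected in all wild-type arrays of both stages. In condensing spermatids 5 of the 23 fell, against 0.279% of all genes measured: Fos, Zfp36, Egr1, Dusp1 and Junb. Because the list was chosen with earlier results of these data known, these counts are a description and not a test. Egr1, a zinc finger transcription factor gene, ranged from 7.88 to 8.84 in wild-type and from 7.43 to 7.79 in knockdown condensing spermatids, with no overlap, and its stage difference was -0.85 ± 0.22 (adjusted p = 0.194). Dusp1, a phosphatase that switches off MAP kinases, differed by -0.60 in condensing and 0.11 in round spermatids, and Junb, another AP-1 subunit gene, by -0.69 and 0.33. The stage difference was not called for Egr1, Dusp1 (adjusted p = 0.17) or Junb (adjusted p = 0.067), and Junb was detected in 2 of the 6 wild-type round arrays. At the other end of the list Sgk1, a kinase gene, and Arc, a gene of synaptic plasticity, had stage differences of 0.00 ± 0.18 and 0.05 ± 0.13, and Ccn2, a matricellular growth factor gene, had 0.51 ± 0.38.

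**Figure D3:**
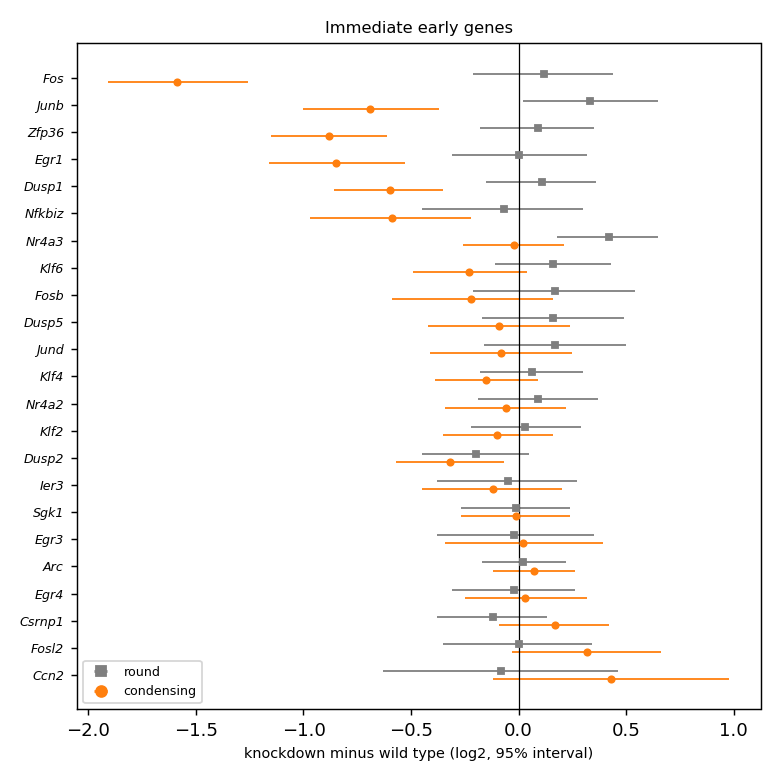
Knockdown minus wild-type difference (log2, with its 95% interval) of the 23 measured immediate early genes in round (grey squares) and condensing spermatids (orange circles), ordered by the stage difference. For Fos, Zfp36, Egr1, Dusp1 and Junb the condensing interval lies below 0 and below the round interval.

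Of 6 measured genes of cytokines and myeloid activation, 4 had a negative stage difference, with a median of -0.35. Only 2 of the 6 were detected in all wild-type arrays of both stages. Ccl4, which encodes a chemokine that attracts immune cells, was the one gene with a called stage difference among those that were not detected at both stages. It was detected in 0 of 6 wild-type and 2 of 6 knockdown round arrays, and ranged from 6.77 to 7.85 in wild-type and from 4.94 to 6.00 in knockdown condensing spermatids. Its stage difference was -2.01 ± 0.25 (limma, adjusted p = 0.000149), and a fall in round spermatids could not have been seen. In this group Ccl4, Il1b and Cd14, which encodes a receptor for bacterial lipopolysaccharide, fell in condensing spermatids (0.279% of all genes), while Cxcl16, Icam1 and Nfkbia had stage differences between -0.03 and 0.16. This group too was chosen with earlier results of these data known. General macrophage and leukocyte markers had a median stage difference of -0.22 over 18 measured genes, 15 of them negative, with 2 at an unadjusted p under 0.05 (Coro1a and Laptm5, against 3.31% of all genes) and 0 called. Their mean level per array was 7.52 to 7.93 in wild-type and 7.35 to 7.79 in knockdown condensing spermatids and 6.16 to 6.62 over the round arrays. All 18 were detected in at least 1 wild-type condensing array and 17 in at least 1 wild-type round array. The 9 that were detected in all wild-type arrays of both stages had a median stage difference of -0.18.

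Of 16 measured stromal and peritubular markers, 10 had a positive and 6 a negative stage difference, and none was called. At an unadjusted p under 0.05 there were 7 positive values (Igfbp6, Htra3, Pdgfra, Mgp, Dcn, Tcf21 and Sparc), against 3.63% of all genes measured, and 1 negative one (Acta2), against 3.31%. The median was 0.24, and 0.29 over the 10 detected in all wild-type arrays of both stages. The brightest marker, the smooth muscle actin gene Actg2, had -0.01. Its level was 13.17 to 13.61 in wild-type round and 13.63 to 13.78 in wild-type condensing spermatids. Whether stromal cells gave this signal was not tested. In condensing spermatids Igfbp6, Htra3 and Pdgfra rose, against 0.26% of all genes. The list was chosen with earlier results of these data known, so its counts are a description and not a test. The product of Igfbp6 binds insulin-like growth factors, and its levels were 6.33 to 7.14 in wild-type against 7.37 to 8.12 in knockdown condensing spermatids. Its round levels were 5.30 to 6.07 in wild type and 4.65 to 6.44 in the knockdown, and its stage difference was 1.22 ± 0.30 (adjusted p = 0.171). Pdgfra, a growth factor receptor of mesenchymal cells, was not detected in all wild-type round arrays and had 1.04 ± 0.28 (limma, adjusted p = 0.275). The second probe of Pdgfra, detected in 7 arrays, differed by 0.14 in condensing spermatids, with a stage difference of 0.29. Mgp, which encodes matrix Gla protein, and Dcn, which encodes the proteoglycan decorin, had 1.04 ± 0.31 and 0.72 ± 0.31. Acta2, the smooth muscle actin of peritubular cells, fell by 0.75 on the log2 scale in condensing spermatids, and its stage difference was -0.79 ± 0.23 (adjusted p = 0.32), with -0.24, -0.48 and -0.07 from its 3 other probes. The mean level of the 16 markers was 7.21 to 7.60 in wild-type and 7.64 to 7.86 in knockdown condensing spermatids, which did not overlap, and 5.97 to 6.56 over the round arrays.

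Of 13 measured endothelial markers, 3 fell in condensing spermatids, against 0.279% of all genes measured: Emcn, Flt1 and Esam. Like the stromal list, this one was chosen with earlier results of these data known, and its counts are a description. A negative stage difference was found for 12 of the 13, against 5261 of all 10759 genes, with a median of -0.26. At an unadjusted p under 0.05 there were 4 of them (Emcn, Flt1, Vwf and Esam), against 3.31% of all genes, and 0 were called. Only 5 of the 13 markers were detected in all wild-type arrays of both stages, with a median of -0.33. For markers not detected in round spermatids a fall there could not have been seen. Emcn, a sialomucin of capillary endothelium, ranged from 5.54 to 5.99 in wild-type and from 4.66 to 5.34 in knockdown condensing spermatids. It was detected in no round array and in 1 of 6 knockdown condensing arrays. Emcn thus met the filter of 6 arrays with detection only through the wild-type condensing group, where it was high. That filter favours a fall, so the fall of Emcn is a description. Its stage difference was -0.73 ± 0.15 (limma, adjusted p = 0.0553). The mean level of the 13 markers was 6.36 to 6.60 in wild-type and 6.14 to 6.33 in knockdown condensing spermatids, without overlap, and 5.65 to 5.92 over the round arrays. Every one of the 16 stromal and 13 endothelial markers was detected in at least 1 wild-type condensing array, and all but 1 of each in at least 1 wild-type round array.

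**Figure D4:**
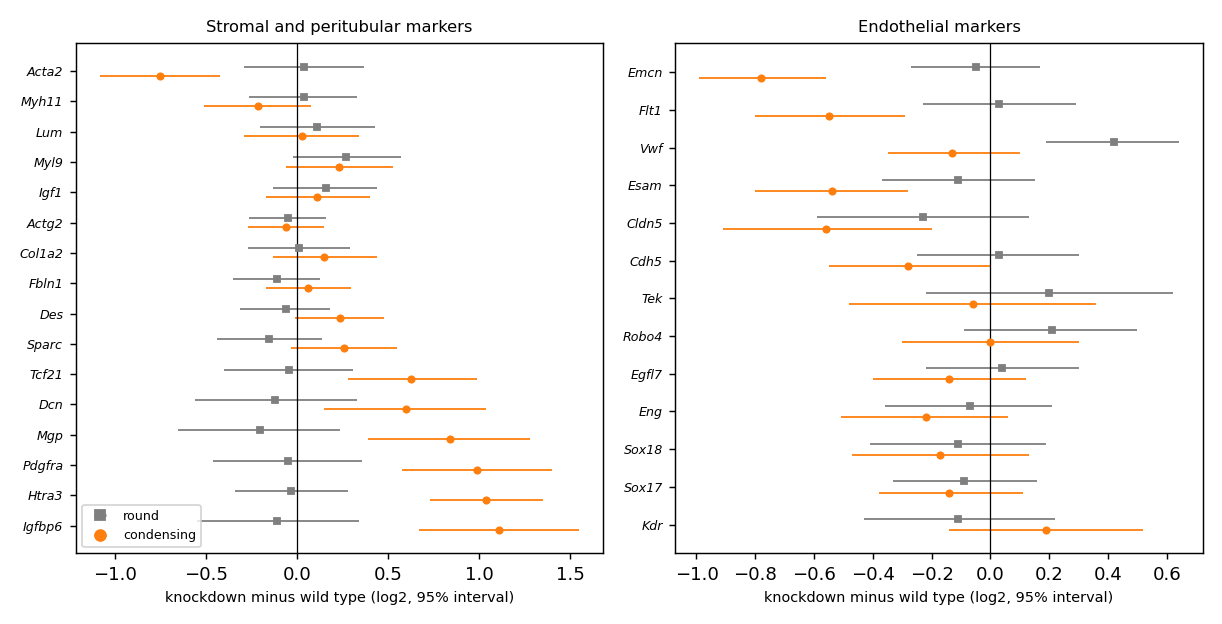
Knockdown minus wild-type difference (log2, with its 95% interval) of the 16 measured stromal and peritubular markers (left) and the 13 endothelial markers (right) in round (grey squares) and condensing spermatids (orange circles), ordered by the stage difference. Igfbp6, Htra3 and Pdgfra lie to the right of 0 and Emcn, Flt1, Esam and Acta2 to the left in condensing spermatids, and their round intervals cross 0.

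Markers of several somatic and blood cell types were higher in condensing than in round samples. In wild type the median condensing minus round difference was 1.09 over the 18 macrophage and leukocyte markers, 0.82 over the 16 stromal, 0.85 over the 13 endothelial, 2.99 over 12 Sertoli cell and 4.84 over 6 erythroid markers, against -0.03 over all genes. It was -0.36 over 16 meiotic spermatocyte markers, 0.07 over 9 spermatogonia markers and -1.17 for the 1 measured epididymal marker. Hbb-bs, a beta globin gene, ranged from 7.13 to 9.12 in wild-type round spermatids and from 14.22 to 14.45 in wild-type condensing spermatids. For the stage difference of the knockdown effect, Sertoli cell markers had a median of 0.02 with 0 of 12 at an unadjusted p under 0.05. Erythroid markers had a median of -0.07 with 0 of 6, of -0.33 over the 4 detected at both stages, and of -0.20 over all 6 without the 3 round arrays that stood apart. Sertoli cell markers had a mean level per array of 8.73 to 8.90 in wild-type and 8.93 to 9.06 in knockdown condensing spermatids, which did not overlap, with a median knockdown difference of 0.19 there and 0.16 in round spermatids. For erythroid markers these levels were 10.34 to 10.61 and 10.54 to 10.84. In samples of many cells, fewer cells of a type and less RNA per cell cannot be told apart. The part of RNA from other cells in the stage differences of the genes named above was not tested.

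In the wild type, 10 of the 18 genes that fell and 7 of the 10 that rose were higher in condensing than in round spermatids (limma, adjusted p under 0.05), against 30.3% of all genes measured. The others that fell were all lower in wild-type condensing spermatids, as 33.8% of all genes were. They were Prf1, Gm10125, Necab3, the adaptor protein gene Grb7, Tmem79, Gatad2b of the NuRD chromatin complex, the amino sugar deaminase gene Gnpda2 and 2700097O09Rik. Their condensing differences lay between -0.92 and -0.43 and their round differences between -0.17 and 0.42. Except for Prf1 they were named after their values were seen. Both comparisons use the wild-type condensing arrays, so their directions are not independent. Of the 18 genes that fell, Acta2 and Esam were on a marker list of another cell type, 5 were immediate early or cytokine genes and 11 were on no list. Of the 10 that rose, Htra3 and Igfbp6 were on a marker list and 8 on no list.

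Genes that missed detection in a wild-type array lay just outside the set. Of all genes called in condensing spermatids, 30 were outside, 13 of them with 0 detections in wild-type round spermatids, 15 with 1 to 5 and 2 detected in all 6 of those arrays but not in all 6 wild-type condensing arrays. Gria1, just inside with 6 of 6 detections, had a mean of 5.38 in wild-type round spermatids, and Flt1, just outside with 5 of 6, had 5.30. Other large differences outside the set in condensing spermatids were 0.94 for Prss35, a secreted protease-like protein gene, 0.83 for Col6a1, a collagen VI chain of the extracellular matrix, 0.83 for Cidea, a lipid droplet protein gene, and -0.91 for Ccl21a, a chemokine gene of lymphatic endothelium. Ccl21a has near-identical copies, and its probe may read several of them. It was detected in no round array and in 2 of 6 knockdown condensing arrays. Ccl21a thus met the filter of 6 arrays with detection only through wild-type condensing arrays, which favours a fall. The stage difference of these 4 genes was 1.0, 0.75, 0.69 and -0.83, and none was called.

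Lists of genes of the spermatid's own programme gave median stage differences near 0. Of 19 measured chromatin packaging genes, 0 were called and 1, the histone chaperone gene Nap1l4 with 0.35 ± 0.16, had an unadjusted p under 0.05, and the median was 0.01. Tnp1, a transition protein gene, had a stage difference of -0.09 (95% interval -0.36 to 0.17), Tnp2 one of -0.02 (interval -0.46 to 0.42) and Prm1, a protamine gene, one of 0.01 (interval -0.27 to 0.28). Brdt, a bromodomain reader of acetylated histones needed for their removal, had -0.09 (interval -0.44 to 0.27). Haploid transcription regulators had a median of -0.10 over 18 genes, 0 called, with Klf17 alone at an unadjusted p under 0.05 (-0.66 ± 0.23, adjusted p = 0.505, with -0.80 and -0.40 from its other probes). Acrosome, flagellum and glycolysis genes had medians of 0.02, 0.03 and 0.00 over 29, 32 and 18 genes. At an unadjusted p under 0.05 (limma) the acrosome list had 2 negative and 0 positive stage differences, against 3.31% and 3.63% of all genes. In condensing spermatids 4 acrosome genes were lower and 0 higher at that level, and 0 were called. Spam1, which encodes a sperm hyaluronidase, had -0.47 ± 0.19, with -0.01 from a second probe, and Eno3, an enolase gene, 0.33 ± 0.15, and neither was called. Spam1 ranged from 10.36 to 10.60 in wild-type and from 10.06 to 10.33 in knockdown condensing spermatids. These groups did not overlap, as those of 1.31% of all genes measured did not. The second probe of Spam1 differed by -0.13 there.

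Among lists of broadly expressed genes, 3 medians were nearer to 0 without a few arrays and that of the proteasome moved little. Oxidative phosphorylation genes had a median stage difference of 0.19 over 65 genes, with 55 positive, 3 at an unadjusted p under 0.05 in that direction (Uqcrh, Atp5j and Atp5pb) and 0 called. The median was -0.12 in round and 0.08 in condensing spermatids. Cytosolic ribosomal protein, mitochondrial ribosomal protein and proteasome genes had medians of 0.14, 0.15 and 0.14 over 51, 71 and 33 genes, with 0 called. Without the 3 round arrays that stood apart the medians were 0.08 for oxidative phosphorylation, 0.03 and 0.04 for the ribosomal protein lists and 0.12 for the proteasome. In the same fit the immediate early genes had -0.30, the stromal markers 0.20 and the endothelial markers -0.26. When arrays were scaled by their medians, the 7512 genes had a median of 0.10, and the list medians were -0.11 for immediate early, 0.29 for stromal, -0.18 for endothelial and 0.27 for oxidative phosphorylation genes.

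**Figure D5:**
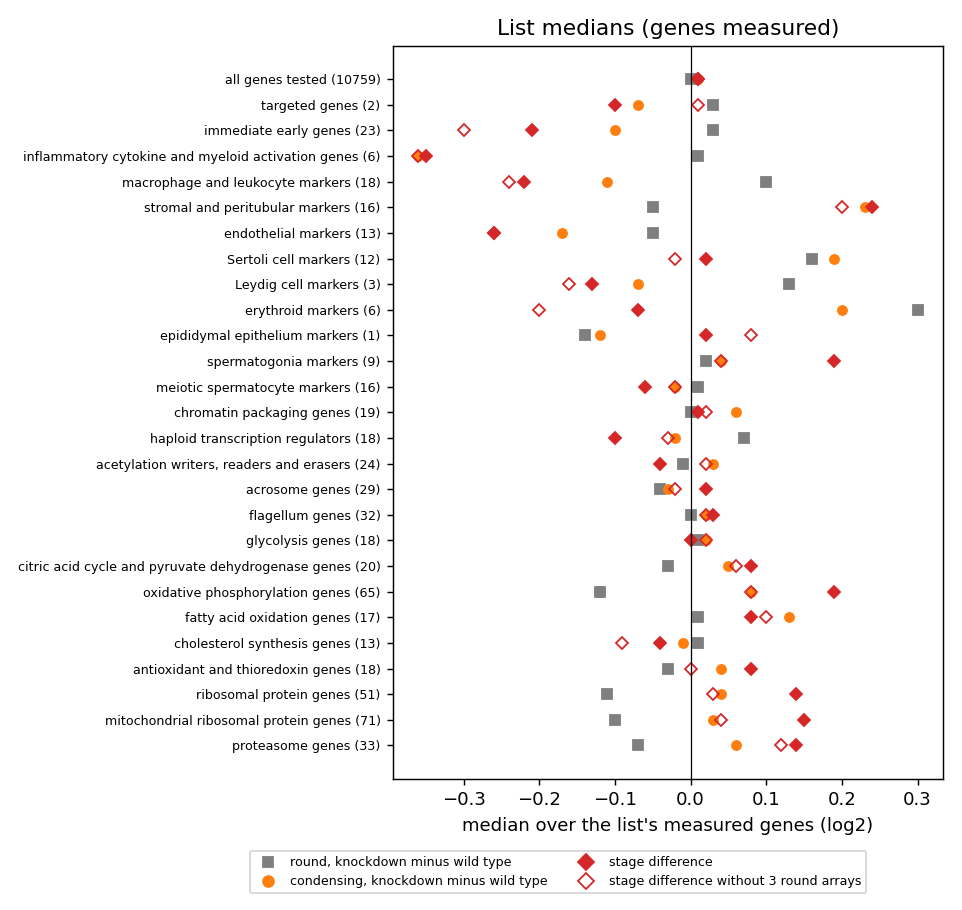
Median log2 difference over the measured genes of each list (number in brackets) for knockdown against wild type in round (grey squares) and condensing spermatids (orange circles) and for the stage difference with all arrays (filled red diamonds) and without the 3 round arrays that stood apart (open red diamonds). The immediate early, inflammatory, macrophage and endothelial lists lie at -0.35 to -0.21 and the stromal list at 0.24, while the open diamond of oxidative phosphorylation moves from 0.19 to 0.08.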

How the data were processed

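What was deposited for the 24 arrays is a table of mean bead intensity for 45281 probes on a linear scale, not normalized per the file headers. Beside each intensity the deposited table holds a detection p-value against the negative control beads, per the file headers. Another deposited intensity table, whose columns share their quantiles, served as an alternative. The sources used here name no software for either. Normexp background correction by detection p-values (offset 16), quantile normalization and log2 were done with limma 3.58.1 (R 4.3.3). Kept were the 19086 probes detected (p under 0.05) in 6 or more arrays, less 3143 without a gene symbol and 10 with several. Each of 10759 genes was read from its brightest probe and named by the platform annotation, with symbols updated through RefSeq. Promoter windows are from RefSeq (GRCm38.p6), which had one for 6154 of the 7512 genes.

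The limma model held 4 group means with a spread per gene moderated across genes. Tests were two-sided, adjusted by Benjamini-Hochberg over the 10759 genes within a contrast, and a gene was called at an adjusted p under 0.05. Levels have SDs and differences have model SEs, each from 6 arrays a group. The procedure was run on simulated data with independent noise and the same spread in all groups. The arrays here may not be independent and varied more in round spermatids, so that run does not show the error rate for these data. The members and the 26 gene lists were chosen with earlier results of these data known. Named genes were the called stage differences and the 10 smallest p-values, the 5 largest rises and falls among genes called within a stage, up to 6 called outside the set, the called average effects, the gene with the smallest p in each list and the brightest marker of each other cell type, 6 fixed genes and the 3 widest opposite pairs in each direction. Other list genes were named after their values were seen. Alternatives were other background, normalization, filter, probe, weighting and moderation choices, each stage fitted alone and each array left out in turn.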

Additional observations from a re-analysis of the deposited data

Results flagged for a closer look

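The knockdown difference changed between stages, by the test of the difference itself (limma), for 5 of the genes measured. The stage difference was -2.01 for Ccl4, -1.7 for Fos, -1.33 for Gria1, -1.13 for Prf1 and -0.97 for Zfp36. For each the condensing groups did not overlap while the round groups did. Over all genes measured the groups were apart for 1.31% in condensing and 0.186% in round spermatids. The 5 genes were chosen by a test on the same arrays, so the overlaps are no further support. Ccl4 was detected in 0 of 6 wild-type round arrays. The calls of Gria1, Prf1 and Zfp36 were lost under several other settings.

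In 9 of 244 pairs of a named gene and a group of 6 arrays (3.69%), 1 array lay further from its nearest neighbour than Dixon's 95% critical share of the group's range, where chance gives about 1 in 20. Wild-type round array 3 was such an array for 5 genes: Ep300 at 8.67 with the nearest at 7.90 (share 0.736), Aif1 at 12.01 with 12.55 (0.731), Rpl23 at 14.92 with 14.70 (0.67), Hspa2 at 14.87 with 14.71 (0.653) and Egr1 at 7.63 with 7.21 (0.646). Knockdown round array 10 was one for Rpl23, at 15.03 with the nearest at 14.79 (0.773). These arrays are among the 3 that correlated least with their groups. The remaining values were those of Sycp2 in wild-type condensing array 16, 8.85 with 8.67 (0.689), of Ccl21a in wild-type round array 2, 4.96 with 4.64 (0.633) in a group with 0 detections, and of Zfp36 in knockdown condensing array 21, 6.81 with 6.52 (0.671). Without array 21 the stage difference of Zfp36 was -1.03 (limma, adjusted p = 0.0187).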

How the results depend on the processing

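Counts are of the 7512 genes. Genes called for the stage difference numbered 4, and 8 without background correction, 8 with no filter on detection, 9 with detection required in all 24 arrays (7259 genes tested), 12 with array quality weights, 2 under median scaling, 1 under cyclic loess and 1 with consecutive arrays as a random block, an alternative added after the data were seen. Called in condensing spermatids were 28, and 44 without background correction, 67 with weights, 65 without the 3 round arrays that stood apart, 14 under median scaling, 17 with quantiles within each stage, 16 under cyclic loess and 13 with the block. For the average effect 2 were called, and 9 without background correction, 6 with an offset of 50, 9 from the authors' second table, 1 with detection in all 24 arrays and 11 with weights. In round spermatids 0 were called under every setting that used all arrays. The causes were not tested. The block allows for arrays next to each other in number being alike, with an estimated correlation of 0.15.

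With each array left out in turn, 1 to 8 genes were called for the stage difference, 14 to 34 in condensing spermatids, 0 to 1 in round spermatids and 2 to 4 for the average. The stage difference count was 1 without wild-type round array 4, 5 or 6, 2 without knockdown round array 7, 8 or 11, wild-type condensing array 15 or 16 or knockdown condensing array 24, 7 without wild-type condensing array 14 and 8 without knockdown condensing array 20. The condensing count was 14 without wild-type array 16, 15 without knockdown array 21 or 22, 16 without wild-type array 13 or 15, 17 without wild-type array 17 or knockdown array 24, and 18 without wild-type array 18 or knockdown array 23. The round count was 1 without knockdown array 11, and the average count 4 without knockdown round array 10, wild-type condensing array 16 or knockdown condensing array 20.

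Fos was called for the stage difference under all of its 38 other settings (-1.83 to -0.88, adjusted p by limma 1.84e-05 to 0.00442) and Ccl4 under all of its 37 (adjusted p 1.84e-05 to 0.00259). Gria1, Prf1 and Zfp36 were lost under median scaling (0.0583, 0.0735 and 0.098), cyclic loess (0.0625 for each) and the block (0.0565, 0.0945 and 0.0745). Prf1 was also lost without background correction (0.0635) and from the second table (0.06), and Zfp36 with quantiles within each stage (0.0635). With 1 array left out Gria1 was called in 18 of 24 fits, Prf1 in 16 and Zfp36 in 11. Beside wild-type round arrays 4, 5 and 6, the arrays whose removal ended the call of Gria1 were knockdown round arrays 7 and 8 and wild-type condensing array 16 (0.0509 to 0.0574). For Prf1 they were knockdown round array 11, wild-type condensing arrays 15 and 16 and knockdown condensing arrays 21 and 24 (0.051 to 0.0576). For Zfp36 they were knockdown round arrays 7, 8, 11 and 12, wild-type condensing arrays 15, 16 and 18 and knockdown condensing arrays 19, 23 and 24 (0.0504 to 0.0734). Htra3 was called under 10 of 38 settings, Il1b under 9 and Kif21a under 6, and no named stage difference that was called under any setting changed sign. No paired analysis was possible because the groups share no replicate numbers.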

Other observations

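Genes that write, read or erase acetyl marks had a median stage difference of -0.04 over 24 measured genes, and 0 were called. The values at an unadjusted p under 0.05 were 0.46 for Kat5, the catalytic subunit of the TIP60 complex, 0.39 for Kat2a, the acetyltransferase GCN5, and -0.37 for Hdac4, a class IIa deacetylase. Genes of the citric acid cycle and pyruvate dehydrogenase had a median of 0.08 over 20 genes, with -0.41 for Idh3g, a subunit of isocitrate dehydrogenase whose second probe, detected in 24 arrays, had 0.34, and -0.31 for the kinase gene Pdk3 at an unadjusted p under 0.05. Fatty acid oxidation and antioxidant genes had medians of 0.08 over 17 and 0.08 over 18 genes with no value at that level, and cholesterol synthesis genes one of -0.04 over 13 with 1 such value, that of Msmo1.

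Markers of other germ cells and testis cells gave these medians: 0.19 over 9 spermatogonia markers, -0.06 over 16 meiotic spermatocyte markers and -0.13 over 3 Leydig cell markers. The single measured epididymal epithelium marker had 0.02. None of these genes was called for the stage difference (limma, adjusted p under 0.05), and 2 of the meiotic markers, 1 in each direction, had an unadjusted p under 0.05.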
